A study of Danio rerio with 9 samples.

Results

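The transcriptome described here is that of the wild-type zebrafish embryo 30 hours after fertilisation (hpf), taken as 3 of the 9 RNA pools in a study of the gene npc2. The pools were chosen by their genotype label alone. Every one of the 32520 gene IDs in the count table was described in them. Each pool held 30 embryos with both npc2 copies intact (npc2+/+), bred from npc2+/+ adults that were siblings of the mutants' parents. No agent, transgene or reporter is named in the labels for any group. RNA was extracted with Trizol and a column kit, and polyadenylated RNA was sequenced. The other 6 pools, 3 heterozygous (Mnpc2+/m, with a mutant mother) and 3 homozygous (MZnpc2m/m, lacking both the maternal and the embryonic wild-type copy), enter below only where the spread of single genes is followed into further pools. The labels call the pools of a genotype separate but name no clutch, day or sex, so the spread given here is that between these pools.

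At 30 hours the zebrafish embryo has finished forming its somites, its trunk muscle twitches, its heart beats, and primitive red cells circulate. Pigment cells have begun to darken, the hatching gland is loaded with proteases that later dissolve the egg envelope, and the embryo lives on yolk lipid exported by the yolk syncytial layer. The pancreas secretes no digestive enzymes yet, the photoreceptors have not formed outer segments, and adult blood and lymphocytes are still to come.

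Total counts were 38564405, 64100420 and 55492163 in replicates 1, 2 and 3. Levels are given in CPM, the counts of a gene per 1000000 counts of its library, after TMM scaling (the trimmed mean of M values) with factors of 0.998, 0.993 and 0.985. A count of 3 equalled 0.0779, 0.0471 and 0.0549 CPM, a limit that covers counting error only. Low counts, those of 1 to 19, were even numbers in 96.6% to 97.5% of cases per pool, so a count of 2 may stand for 1 fragment, in which case this limit is too low. CPM is not corrected for transcript length, and no lengths were used here, so a level is a share of the counts and is compared between pools for the same gene, not between genes.

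A gene ID was called present when it reached 1 CPM in all 3 pools. This held for 15659 of the 32520 IDs, or 48.2%. Another 990 IDs reached 1 CPM in only 1 or 2 pools. The other 15871 stayed below it in every pool, of which 8024 had no count at all. IDs with a symbol were present in 51.6% of cases and IDs without one in 17.8%, and those without a symbol together held 0.874% to 0.916% of a pool's counts. The median of the present IDs was 14.9 CPM. A mean of 10 CPM was reached by 9435 IDs, which held 97.0% of the counts, and a mean of 100 CPM by 1719 IDs with 70.7%. Only 126 IDs reached 1000 CPM, and they held 32.9%.

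Muscle supplied much of the top of the list. The gene with the most counts was atp2a1, the calcium pump of the fast muscle sarcoplasmic reticulum, at 17381, 17872 and 17310.0 CPM in replicates 1, 2 and 3. The actin gene actc1b followed at 15080.0, 15817 and 15875 CPM, and the fast myosin heavy chain myhz1.1 stood at 8856, 9022 and 9093 CPM. The 3 pools lay within 1.06-fold of one another for each of these genes. Of the 20 IDs with the highest mean CPM, 7 belonged to the fast muscle list. The muscle creatine kinase ckmb was at 6740 ± 287 CPM (SD, n = 3 pools here and below), the tropomyosin tpma at 6108 ± 304 and the myosin myhz1.3 at 5920 ± 255.

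The rest of the top 20 served translation, respiration and lipid transport. The translation elongation factors eef1a1l1 and eef2b stood at 13751 ± 152 and 6164 ± 172 CPM. The mitochondrially encoded cytochrome oxidase subunits MT-CO1 and MT-CO3 were at 9100 ± 463 and 3885 ± 138 CPM. Ribosomal proteins contributed RPSA2, RPS2 and RPLP0. The apolipoproteins apobb.1 and apoa1b, structural proteins of lipoprotein particles, were at 7515 ± 292 and 5385 ± 148 CPM. The other 4 IDs were the cytoplasmic actin actb2, the chromatin protein hmga1a, the chaperone HSP90AB1 and the mitochondrial ADP/ATP carrier SLC25A5.

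**Figure D1:**
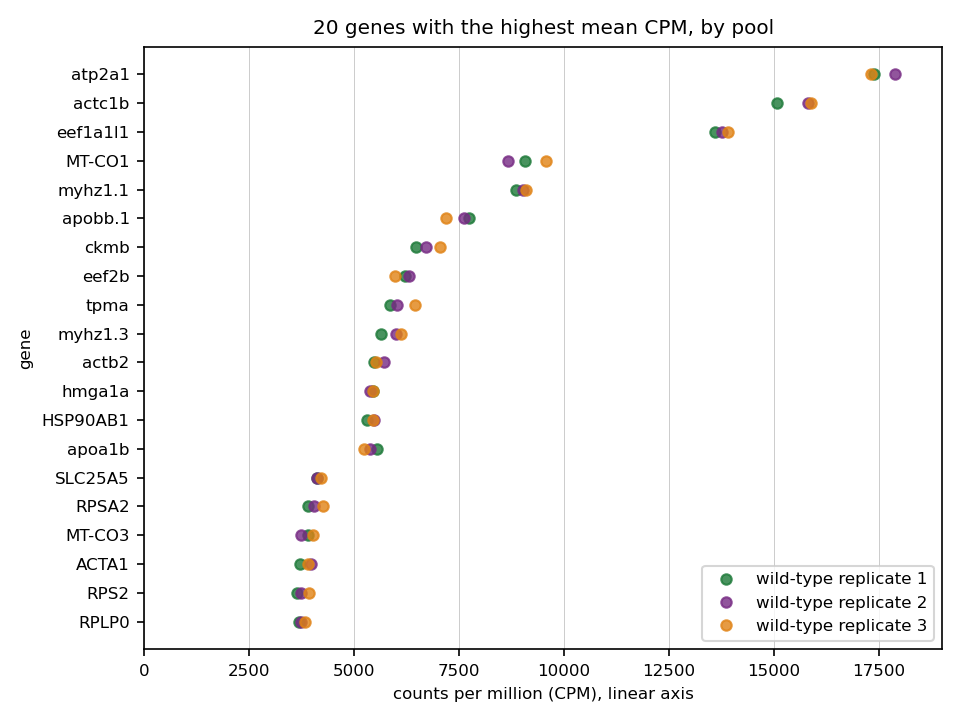
CPM (linear x axis) of the 20 genes with the highest mean, 1 point per wild-type pool. The pools lie close together for each gene, from atp2a1 at 17310.0 to 17872 CPM down to RPLP0 at 3697 to 3817 CPM.

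Summed by class, the 85 IDs of cytosolic ribosomal proteins held 8.62 ± 0.215% of the counts and the 22 IDs of the fast muscle list 8.23 ± 0.181%. The 13 mitochondrially encoded IDs held 3.01 ± 0.127%, the 15 IDs of apolipoproteins A, B, C and E 2.42 ± 0.0442%, the 13 elongation factor IDs 2.28 ± 0.0117% and the 57 collagens 1.12 ± 0.0218%. Keratins took 0.842 ± 0.0286%, the 16 globin IDs 0.639 ± 0.0349% and crystallins 0.157 ± 0.00362%. No single gene dominated a library. The highest gene held 1.74% of the counts, the 10 highest 9.66 ± 0.0761%, the 100 highest 30.0 ± 0.476% and the 1000 highest 61.7 ± 0.425%.

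To ask which tissues left their mark on these pools, 46 lists of marker genes were matched to 984 distinct IDs. In 35 lists, at least 50% of the IDs were present, against 48.2% of all IDs and 51.6% of IDs with a symbol. List members are named genes. Of the 19834 IDs with a symbol other than a clone, locus or small RNA name, only 27.9% were below 1 CPM in all pools. A share of 50% is therefore not read as enrichment. These are whole embryos, so fewer cells of a type and less RNA per cell cannot be told apart. Lists contain well-studied genes, and no list was tested against others. A member listed near 0 is not read as silent, since genes that every cell uses were listed near 0 as well. The list sums below add genes of different lengths and are meant for comparing pools.

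**Figure D2:**
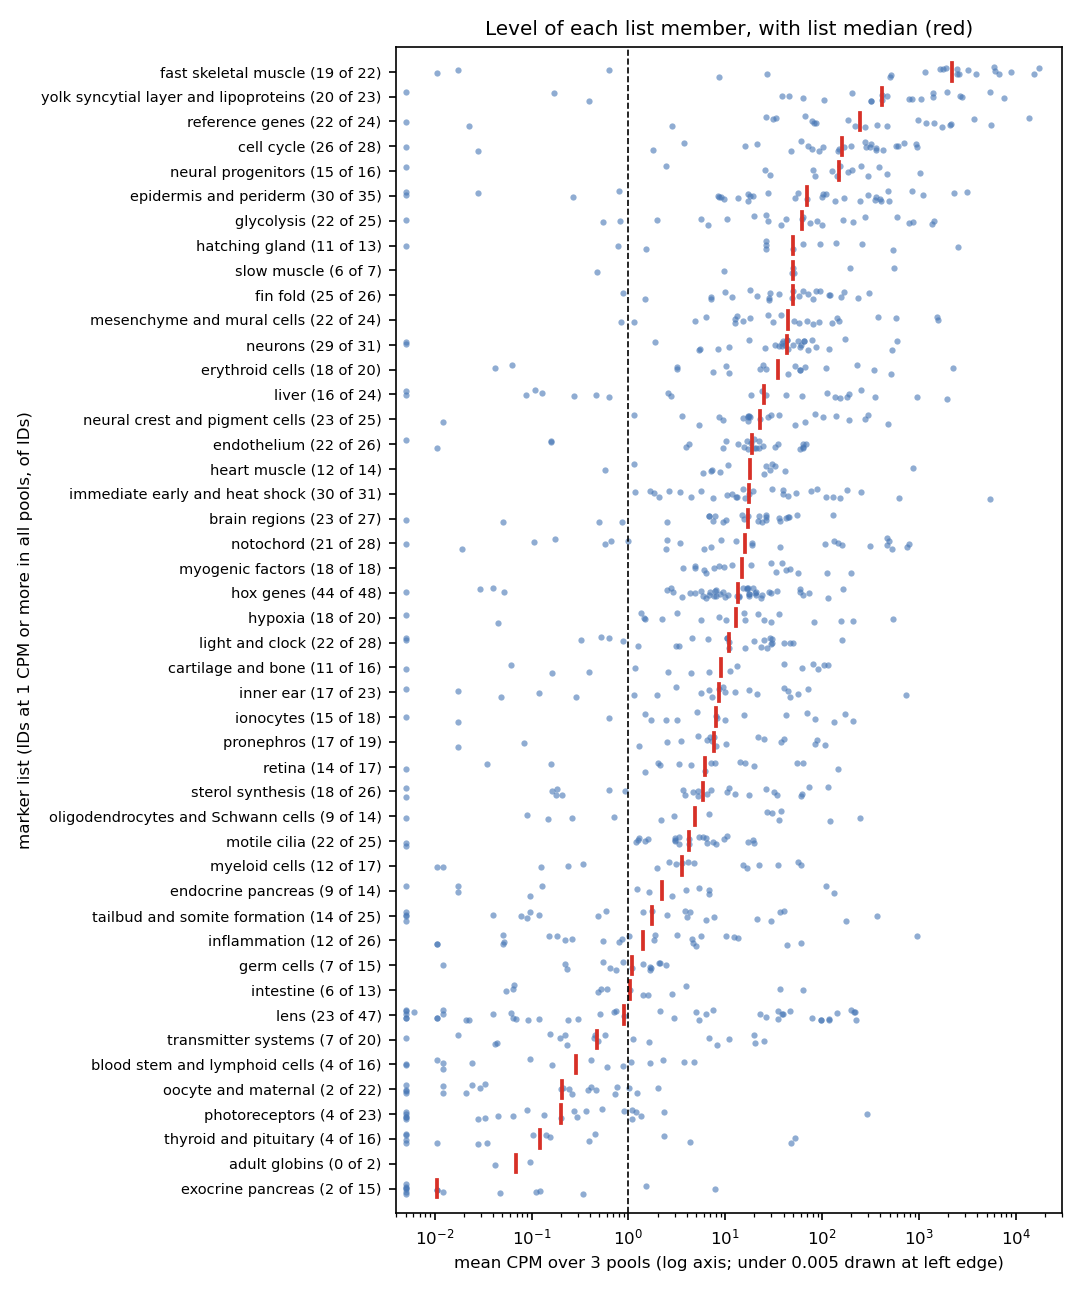
Mean CPM over 3 wild-type pools (log x axis) of each member of 46 marker lists, with the list median in red, a dashed line at 1 CPM, and the number of present IDs in parentheses. Fast muscle members reach 17521 CPM while lists such as exocrine pancreas, with 2 of 15 IDs present, lie mostly to the left of the line. Many lists also hold some members near 0.

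Fast skeletal muscle had 19 of 22 IDs present, summing to 80440, 83470 and 85080 CPM in replicates 1, 2 and 3. Replicate 1 was the lowest for the list as a whole, 1.06-fold under replicate 3. Beyond the genes already named, myhz2 was at 3233 ± 45.1 CPM, the calcium buffer pvalb1 at 1919 ± 114 and the sarcomere scaffold gene ldb3b at 509 ± 28.0. All 18 myogenic regulators were present, among them MYOD1 (38.9 ± 3.34 CPM) and MYOG (11.7 ± 0.619), which drive myoblasts into differentiation, and MYMK (4.92 ± 0.210), required for their fusion.

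Slow muscle, the superficial fibre layer, showed the slow light chain myl10 at 553 ± 22.6 CPM and the troponin tnni1c at 51.4 ± 3.43 CPM in pools that differed little. The slow myosin heavy chain smyhc1 was different: it stood at 56.5, 86.0 and 3.79 CPM. Its neighbour and near-identical copy smyhc2 stood at 12.2, 8.58 and 8.38 CPM. Replicate 3 had the least of smyhc1 while it had the most of myl10, at 579 CPM against 537 and 544. Reads of near-identical copies can be split between them by the counting, so single values of these genes are uncertain. The sum of both was 68.7, 94.6 and 12.2 CPM, a 7.77-fold range. Any further copies were not added to this sum, and what set the range was not tested.

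The heart was visible through the atrial and ventricular light chain MYL7 at 32.8 ± 1.43 CPM. The actin actc1a of the heart list was at 877 ± 23.3 CPM, far above the next member counted, MYH7 at 40.9 ± 3.44 CPM. In whole embryos the actc1a level cannot be assigned to the heart alone. The cardiac transcription factors HAND2 and GATA5 were at 25.3 ± 0.697 and 30.5 ± 1.99 CPM. The natriuretic peptide nppa, made by working myocardium, was at 7.35 ± 0.661 CPM. Of 14 IDs in the list, 12 were present. The cardiac factor NKX2-5 was not, at 0.571, 0.346 and 0.805 CPM.

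In the red cell list 18 of 20 IDs were present, against 51.6% of all IDs with a symbol. Those not present were gata1a and alas2, whose values are given further below. The embryonic alpha globin hbae3 was at 2199, 2219.7 and 2356 CPM in replicates 1, 2 and 3. The symbol HBE1 was shared by 7 beta globin IDs, whose fish paralogue was not told apart, and which the list therefore leaves out. The highest of them (ENSDARG00000113599) was at 1377.7, 1086 and 1414.5 CPM, a 1.302-fold range, and the 7 summed to 3050.0, 2918 and 3252 CPM. A further beta globin, hbbe3, was at 65.9, 64.4 and 71.6 CPM. The haem pathway enzymes UROD and ALAD were at 59.7 ± 1.56 and 44.2 ± 1.08 CPM, and the haematopoietic regulator TAL1 at 24.3 ± 0.313 CPM. The adult alpha globins hbaa1 and hbaa2 were at 0.0973 ± 0.0510 and 0.0417 ± 0.0376 CPM, so this pair was near 0. Within the embryonic alpha globins, hbae1.2 varied, at 399, 167 and 305 CPM. The 6 hbae IDs summed to 3468, 3048 and 3390.0 CPM, a 1.14-fold range, so their sum varied less than that member.

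In the endothelial list 22 of 26 IDs were present, with pools in close agreement: the list summed to 623.2, 621.3 and 626.9 CPM. The vascular receptor kdrl was at 64.0 ± 1.66 CPM, the endothelial cadherin cdh5 at 63.3 ± 2.79 and the lymphatic and venous receptor FLT4 at 34.8 ± 0.581. Myeloid cells had 12 of 17 IDs present at low levels. The neutrophil gene npsn was at 22.4 ± 0.911 CPM. The macrophage receptor csf1ra, also a member of the neural crest and pigment list, was at 15.1 ± 1.62 CPM, so its level is not assigned to macrophages alone. Blood stem cell and lymphoid genes had 4 of 16 IDs present. Their highest, the lymphoid factor IKZF1, was at 4.31, 5.18 and 4.90 CPM, and the stem cell factor RUNX1 was at 1.82, 1.99 and 1.17 CPM. The recombinase RAG1 lay around the threshold at 0.935, 1.07 and 1.21 CPM.

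Both progenitors and neurons were represented. Neural progenitor genes were present in 15 of 16 cases, among them SOX3 (389 ± 9.80 CPM), GFAP (297 ± 11.2) and SOX2 (152 ± 6.43). Neuronal genes were present in 29 of 31 cases, among them the RNA-binding protein ELAVL3 at 592 ± 49.0 CPM and the proneural factor neurog1 at 71.2 ± 2.51 CPM. Of the transmitter system genes, 7 of 20 IDs were present. The inhibitory vesicle transporter SLC32A1 (25.2, 26.1 and 23.3 CPM) and the GABA-synthesising GAD2 (21.6, 19.9 and 18.7 CPM) led that list, and CHAT, the enzyme of acetylcholine synthesis, was at 8.41, 8.72 and 7.72 CPM. In the oligodendrocyte and Schwann cell list, the lineage factor OLIG2 stood at 31.5, 31.2 and 28.9 CPM. For mbpb, a myelin basic protein gene, the values were 37.9, 35.2 and 40.4 CPM.

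Brain region factors were present in 23 of 27 cases. The dorsal neural factor ZIC1 was at 136, 130.2 and 119 CPM and the forebrain and midbrain factor OTX2 at 58.0, 55.8 and 50.3 CPM. In the retina list 14 of 17 IDs were present, among them meis2b and the progenitor factor rx1 (54.9 ± 3.22 CPM). In the photoreceptor list 4 of 23 were present. Its 7 opsin IDs had means of 0 to 0.20 CPM. The list's highest ID, gnb1b at 290 ± 2.61 CPM, encodes a G protein subunit that many cells share.

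The lens list had 23 of 47 IDs present. The beta crystallins crybb1l1, cryba1b and CRYBA4 stood at 225 ± 5.21, 197 ± 3.33 and 118 ± 3.79 CPM. Among the gamma M2 crystallins, crygm2d8 was at 39.4 ± 6.13 CPM, while crygm2a, crygm2b, crygm2e and crygm2f were listed at 0 in all pools. The alpha crystallin CRYAA, a chaperone of mature lens fibres, was at 0.739 ± 0.154 CPM. Many gamma crystallins are near-identical copies, so single IDs of that group are uncertain.

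Among skin genes, the periderm keratin krt4 was at 3072, 3084 and 3138 CPM and the keratin cyt1 at 2283, 2242 and 2395 CPM. Across the epidermis and periderm list, 30 of 35 IDs were present, and 28 of the 30 at 5 CPM or more were higher in replicate 3 than in the mean of the other pools, by a median of 0.082 on the log2 scale. Over all 11852 IDs at 5 CPM or more, 51.7% were higher in replicate 3, and the median was 0.0062. The hatching gland protease he1.1 was at 2477, 2421 and 2612 CPM and he1.2 at 539.7, 489 and 582 CPM, also highest in replicate 3. Ionocytes, the ion-pumping cells of the skin, had 15 of 18 IDs present, with ca2, carbonic anhydrase, at 84.1 ± 6.05 CPM and foxi3a, the factor that specifies them, at 10.03 ± 0.775 CPM.

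Among supporting tissues, the notochord list had 21 of 28 IDs present, led by a COL2A1 ID (ENSDARG00000011407) at 784 ± 20.6 CPM, the matrilin MATN4 at 747 ± 27.1 CPM and hapln1a, which links hyaluronan to matrix, at 486 ± 8.12 CPM. Fin fold genes were present in 25 of 26 cases. The actinodins and1 and and2, fibre proteins of the larval fin, were at 306 ± 4.25 and 167 ± 2.90 CPM. Type I collagen led the mesenchyme list, with COL1A2 at 1519.8 ± 36.4 CPM. Cartilage and bone had 11 of 16 IDs present, with SOX5 at 115 ± 6.25 CPM. The bone matrix genes spp1 and bglap were at 0.390 ± 0.107 CPM and listed at 0, respectively.

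The neural crest and pigment list had 23 of 25 IDs present. The pteridine enzyme gch2, which makes yellow pigment, was at 468, 455 and 498 CPM. The melanosome protein pmela was at 297, 296 and 303 CPM, and DCT and TYR, enzymes of melanin synthesis, were at 188 ± 3.38 and 66.1 ± 3.78 CPM. Kidney genes were present in 17 of 19 cases, among them the tubule cadherin CDH17 at 107 ± 3.05 CPM and the podocyte gene podxl at 85.02 ± 2.26 CPM.

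The yolk syncytial layer and lipoprotein list had 20 of 23 IDs present and summed to 28390, 27870 and 28000 CPM, a 1.02-fold range. Besides apobb.1 and apoa1b, apoeb was at 2757 ± 50.6 CPM and apoa2 at 2654 ± 145 CPM. In the liver list 16 of 24 IDs were present. Transferrin (tfa) was at 1942 ± 25.3 CPM and fibrinogen alpha (fga) at 190.0 ± 14.4 CPM, while fabp10a, the liver fatty acid binding protein, was at 0.0871 ± 0.0517 CPM. Several of these genes are also made in the yolk syncytial layer.

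The exocrine pancreas had 2 of 15 IDs present, the lineage factor PTF1A at 7.95, 7.60 and 7.94 CPM and amylase at 1.35, 1.51 and 1.72 CPM for amy2a. The proteases prss1, ela2, ctrl and ela2l had means of 0 to 0.336 CPM. The intestine had 6 of 13 IDs present and the thyroid and pituitary list 4 of 16. The pituitary hormone prl was at 2.23, 2.105 and 2.60 CPM, and thyroglobulin (TG) at 0.389 ± 0.0799 CPM. In the endocrine pancreas list 9 of 14 IDs were present, among them somatostatin sst2 at 4.88, 6.03 and 5.09 CPM and glucagon gcga at 2.86, 2.32 and 3.18 CPM.

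Germ cells are a small population set aside early, and their genes were listed at low levels. Of 15 IDs in that list, 7 were present, against 51.6% of all IDs with a symbol. The highest mean was 2.45 CPM. The germ cell gene NANOS3 was at 1.92, 2.23 and 2.23 CPM and the Tudor protein TDRD6 at 2.29, 2.51 and 2.56 CPM. The helicase gene DDX4 (vasa) was at 1.19, 2.42 and 1.54 CPM. In contrast, DND1, TDRD1, ca15b, DAZL and ASZ1 stayed below 1 CPM in all pools, with means of 0.0122 to 0.647 CPM. Oocyte and maternal genes had 2 of 22 IDs present, both egg envelope genes, zp3 at 2.01 ± 0.615 and zp3a.2 at 1.21 ± 0.171 CPM. The tailbud and somite list had 14 of 25 IDs present. The segmentation clock genes her1 and her7 stood at 0.120 ± 0.0657 and 0.0400 ± 0.0107 CPM, while the tailbud factor tbxta, also a notochord gene, was at 37.1 ± 3.94 CPM and the fringe gene LFNG, used in several tissues, at 371 ± 8.23 CPM.

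Cell cycle genes were detected almost throughout. Of 28 cell cycle IDs, 26 were present, with a sum of 7333, 7231 and 7271 CPM, a 1.01-fold range. The proliferation marker mki67 was at 961 ± 8.20 CPM, the replication clamp PCNA at 935 ± 31.4 CPM and the mitotic topoisomerase TOP2A at 699.6 ± 14.9 CPM.

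The inner ear had 17 of 23 IDs present, with starmaker (stm), an otolith protein, at 67.1, 70.8 and 77.4 CPM. Motile cilia had 22 of 25, with the ciliary master regulator FOXJ1 at 21.1, 17.9 and 19.2 CPM and the dynein DNAH5 at 17.9, 18.1 and 15.4 CPM. Glycolysis had 22 of 25 IDs present, with the muscle enolase ENO3 at 545, 577 and 641 CPM. Hypoxia-related genes had 18 of 20, and EGLN3, an oxygen-sensing hydroxylase, was at 44.7, 34.8 and 27.4 CPM, a 1.63-fold range. Sterol synthesis had 18 of 26 IDs, with its regulator srebf2 at 121, 125 and 103 CPM and the enzyme FDPS at 72.7, 74.4 and 74.3 CPM. In the inflammation list 12 of 26 were present, in the light and clock list 22 of 28, and in the immediate early and heat shock list 30 of 31.

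Hox genes, which set position along the body axis, had the most even sum of the 46 lists. Of 48 IDs, 44 were present, and the sum was 1037, 1036 and 1037 CPM. Single members had a median coefficient of variation (CV, the SD over the mean) of 3.98% over 38 IDs at 5 CPM or more. Each of the 13 paralogue groups had members present, from HOXB3 in group 3 (164, 168 and 159 CPM) to an ID named HOXC13 (ENSDARG00000070353) in group 13, with a mean of 10.6 CPM. The sum for group 3 was 367, 377 and 369 CPM, that for group 9 was 132, 131 and 136 CPM and that for group 13 was 30.3, 31 and 32.1 CPM.

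**Figure D3:**
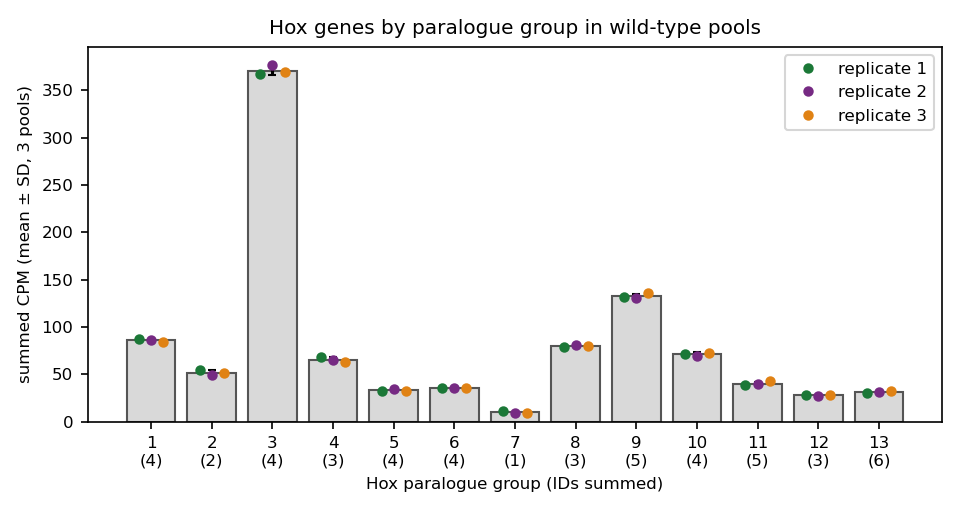
Summed CPM of the Hox IDs in each of 13 paralogue groups (bars, mean with SD over 3 wild-type pools, points for single pools), with the number of IDs in parentheses. The 3 pools lie close together in each group, such as 367 to 377 CPM in group 3. Groups differ in the number and length of their transcripts, so bar heights are not compared.

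The gene the study is about was measured in all pools. NPC2 (ENSDARG00000090912), a lysosomal protein that carries cholesterol out of the lysosome lumen, was at 265, 256 and 277 CPM. A second ID of that symbol (ENSDARG00000096979) was at 2.29, 1.76 and 1.83 CPM. NPC1, the membrane protein that takes cholesterol over from NPC2, was at 203, 196 and 194 CPM. The CV was 3.97% for NPC2 and 2.35% for NPC1.

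A low value in this table does not show that a gene is silent, because genes that every cell uses were also listed near 0. A set of 171 such genes was put together after that was noticed: subunits of the ribosome, the proteasome, RNA polymerase II, respiratory complex I and other complexes, each with a single ID of its name. Of these, 18 (10.5%) were below 1 CPM in all 3 pools and 29 (17.0%) had a mean below 10 CPM. The median of the other 153, which reached 1 CPM in at least 1 pool, was 169 CPM. The ribosomal protein RPL32 was at 0.104, 0.0628 and 0 CPM and RPL26 at 0 in all pools, against a median of 968 CPM over the 64 ribosomal IDs. The proteasome subunit PSMA5, the polymerase subunit POLR2F, the complex I subunits NDUFA12 and NDUFB5 and the threonyl-tRNA synthetase TARS1 were listed at 0 in all pools. The share was 30.0% for RNA polymerase II (3 of 10 IDs) and 17.6% for complex I (6 of 34), while none of 6 chaperonin CCT and none of 8 initiation factor eIF3 IDs was below 1 CPM. Of the 18, 17 were also below 1 CPM in all heterozygous pools and 17 in all homozygous pools. A copy counted under a clone name was not searched for.

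The same held for defining genes of tissues whose other markers were high. The master regulator of red cells, gata1a, was at 0.0417 ± 0.0376 CPM and alas2, the first enzyme of red cell haem synthesis, at 0.0624 ± 0.0824 CPM, beside hbae3 at 2258 CPM. The fast troponin TNNC2 was at 0.0173 ± 0.0300 CPM beside TNNT3 IDs at 1788 and 1649.7 CPM. The mitotic kinase plk1 and the retinoic acid enzyme ALDH1A2 were listed at 0, the vascular receptor flt1 was at 0.0105 CPM beside kdrl, and the ionocyte factor foxi3b at 0.0173 CPM beside foxi3a. Insulin (ins), pdx1 and lysozyme (lyz) were near 0 too. The low counts of the pancreas, photoreceptor and lymphoid lists are therefore given as listed values, and whether these genes were silent was not tested.

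Near-0 IDs lay beside other near-0 IDs in the order of the table. That order follows the chromosomes: among 11459 pairs of adjacent named rows with a chromosome in RefSeq (assembly GRCz12tu, used for names and neighbours only), 97.7% were on the same one. Among the 5 named rows on each side of the 18 low genes, 42.2% were below 1 CPM. Beside the 153 other genes of the set the share was 22%, and over all 19834 named IDs it was 27.9%. The gene plk1 had 9 of 10 such neighbours below 1 CPM, RPL32 and alas2 8 and PSMA5 7, but TARS1 had 1 and NDUFS1 had 0. There were 47 runs of 10 or more named IDs in a row below 1 CPM, together 815 IDs, and the longest held 64. What set these stretches was not tested.

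**Figure D4:**
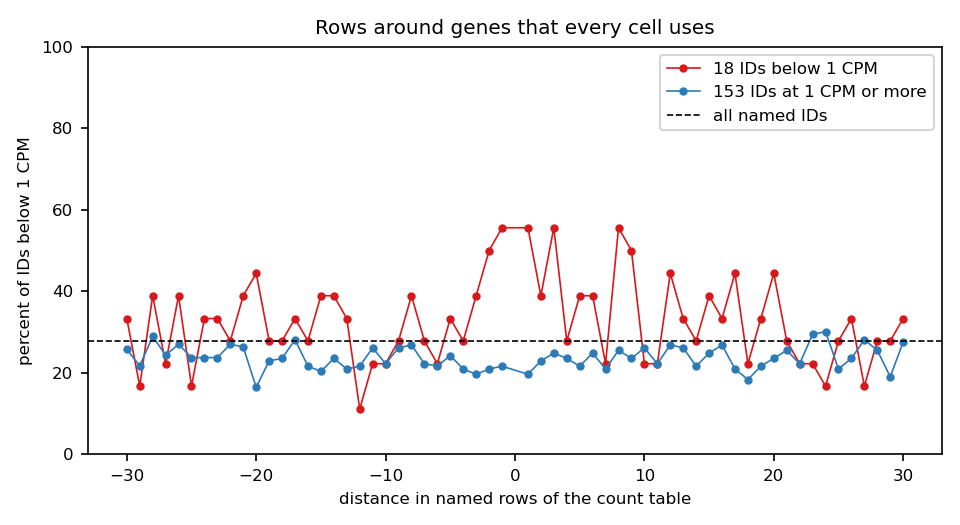
Percent of named gene IDs below 1 CPM in all 3 pools (y axis) against the distance in named rows of the count table from 171 genes that every cell uses. The red points (18 IDs that are themselves below 1 CPM) are at 55.6% in the rows on either side, against 27.9% for all named IDs (dashed line), and the blue points (153 other IDs) stay between 16.4% and 30.1%.

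Spread between the pools was measured on the 11852 IDs with a mean of 5 CPM or more. Their median CV was 5.44%, with a 5th to 95th percentile range of 1.33% to 15%. The highest pool exceeded the lowest by a median of 1.11-fold. A ratio of 1.5 or more was seen in 163 IDs (1.38%) and of 2 or more in 39. At 20 to 50 CPM the median CV was 4.95%, beside a sampling value of 3.59% for fragments alone, at 2 counts per fragment. At 1000 CPM and above it was 3.24% against 0.485%. The sampling value is an expected SD over the mean, and a median of CVs from 3 pools tends to lie under it. The measures are thus not alike. Below the limit of 5 CPM, at 1 to 2 CPM, the median CV was 15.7% against 16.9%. The common biological coefficient of variation fitted by edgeR to these pools, with no other factor, was 7.97%, next to 7.53% in the heterozygous and 6.77% in the homozygous pools.

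Replicates 1 and 2 were the closest pair. Across genes, which are not independent replicates, log2 CPM correlated at Pearson's r = 0.9951 for replicates 1 and 2, 0.992 for 1 and 3 and 0.9943 for 2 and 3. The chi-square per degree of freedom on counts divided by 2 was 3.85, 8.72 and 8.77 in that order, so each pair differed by more than sampling noise and no pool was a copy of another. Over IDs at 5 CPM or more the median CV was 3.41% without replicate 3, 4.62% without replicate 1 and 5.32% without replicate 2. Among the 163 IDs past 1.5-fold, the pool farthest from the others was replicate 3 in 65 cases, replicate 1 in 64 and replicate 2 in 34. Replicate 3 was low in 49 of its 65, while replicate 1 was low in 32 of its cases and high in 32.

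Some named gene groups differed between the pools too, while others were even. Of 38 Hox IDs at 5 CPM or more, 21 were higher in replicate 3 than in the mean of the other pools. For endothelium it was 10 of 20, against 51.7% of all IDs. Not every shifted list is described here: in replicate 3, 12 of 14 liver IDs and 0 of 6 transmitter system IDs were higher. NOTCH3, a receptor of neural progenitors, was at 1092, 1124 and 856 CPM, and each of the IDs named NOTCH1 was lowest in replicate 3 as well, at 506, 521 and 370.0 CPM for one and 289, 281 and 194 CPM for the other. The neural progenitor list summed to 3616, 3658 and 3127 CPM. Its 3 NOTCH IDs made up most of that difference, with 1887, 1926 and 1420.0 CPM, while the other 13 summed to 1728, 1732 and 1706 CPM. A low replicate 3 was not particular to NOTCH IDs. TRRAP was at 141, 146 and 95.4 CPM and AGO1 at 92.6, 88.8 and 59.5 CPM. Of the 163 IDs past 1.5-fold, replicate 3 was the farthest pool and low in 49, and high in 16. The her4 repressors, targets of Notch, were highest in replicate 3, with a sum over 5 near-identical IDs of 99.8, 130.2 and 158 CPM. Of 18 notochord IDs at 5 CPM or more, 16 were higher in replicate 3 than in the mean of the other pools, by a median of 0.081 on the log2 scale, against 51.7% of all IDs.

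Clock and light-regulated genes differed between replicates 1 and 3. Of 18 IDs, 16 were lower in replicate 3 than in the mean of the other pools, with a median of -0.13 on the log2 scale, against 48.3% of all IDs. In replicate 1, 17 of the 18 were higher, with a median of 0.12, against 49.9%. PER3, a repressor of the clock, was at 44.0, 42.5 and 34.5 CPM.

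Fast muscle genes were lower in replicate 1 for 18 of 19 IDs, with a median of -0.091 on the log2 scale, against 50.1% of all IDs. In replicate 3, 16 of the 19 were higher, with a median of 0.096, against 51.7% of all IDs. Of 24 immediate early and heat shock IDs, 22 were lower in replicate 1, with a median of -0.14, against the same 50.1%. The inducible hsp70 genes summed to 12.7, 21.0 and 34.5 CPM, a 2.73-fold range. Replicate 2 had the highest levels of several inflammation genes: the matrix protease MMP9 was at 4.62, 22.2 and 10.17 CPM and the interferon-induced mxc at 2.91, 9.17 and 2.82 CPM. All 7 inflammation IDs at 5 CPM or more were higher in replicate 2 than in the mean of the others, by a median of 0.12, against 49.1% of all IDs.

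The 15 genes with the widest spread, among those with a mean of 10 CPM or more, were RPL21, VCP, smyhc1, actn3a, srsf7a, ETF1, RPL13A, RPS13, NDUFA1, ubb, MMP9, flna, hnrnpl2, DUT and CKMT1B. Several switched between a low and a high value from pool to pool. The ribosomal protein RPL21 was at 36.6, 0.455 and 0.586 CPM, RPS13 at 31.9, 4.32 and 3.64 CPM and RPL13A at 6.78, 7.23 and 64.2 CPM. VCP, a ubiquitin-dependent unfolding ATPase, was at 0.571, 16.2 and 16.7 CPM, the alpha actinin actn3a at 46.9, 4.02 and 3.60 CPM, and the translation release factor ETF1 at 21.7, 1.84 and 18.6 CPM. RPL21, actn3a, RPL13A, RPS13, DUT and CKMT1B were below 10 CPM in both other pools. They thus passed the filter on the mean only through their high pool. No pool was high throughout: replicate 1 was the single high one for RPL21, RPS13, actn3a, DUT and CKMT1B and the single low one for VCP and ubb.

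These jumps were also looked for in pools that the choice had not used. Of the 15 genes, 7 passed 1.5-fold between highest and lowest pool in the heterozygous pools, against 0.859% of the 9435 IDs with a mean of 10 CPM or more in wild type. In the homozygous pools it was 6 of the 15, against 0.572%. The genes smyhc1, srsf7a, RPS13 and NDUFA1 were among them in both genotypes. RPL21, actn3a, RPL13A, ubb, DUT and CKMT1B passed 1.5-fold in neither. No filter on the level in those pools was applied, and low genes vary more by sampling. The choice of the 15 also let in low genes through a single high pool, so the shares over all IDs are not a like background. RPS13 stood at 3.53, 35.1 and 3.74 CPM in the heterozygous and 3.73, 30.0 and 4.24 CPM in the homozygous pools, so that 1 pool of each genotype was near 30 CPM and the others near 4 CPM. The splicing factor srsf7a was at 1.82, 13.3 and 22.8 CPM in heterozygous pools, next to 13.5, 1.45 and 17.8 CPM in wild type, and smyhc1 at 10.7, 49.6 and 74.8 CPM. RPL13A and actn3a, by contrast, stayed between 3.60 and 7.96 CPM in all pools but the high wild-type one. Of the 15, 9 had at least 5 near-0 IDs among the 10 named rows beside them, against 20.3% of all named IDs. RPL21 had 9 and RPL13A 7. Both were let in by a single high pool, so the share over all named IDs is not a like background here either. The neighbours did not jump with RPL21: they summed to 1.87, 5.78 and 1.65 CPM. Those of VCP summed to 0.416, 13.9 and 20.9 CPM, lowest in replicate 1 as VCP itself was. Among neighbours with a mean of 5 CPM or more, 1 beside VCP and 1 beside srsf7a passed 1.5-fold in wild type. None did beside the rest of the 15. What linked such rows was not tested.

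**Figure D5:**
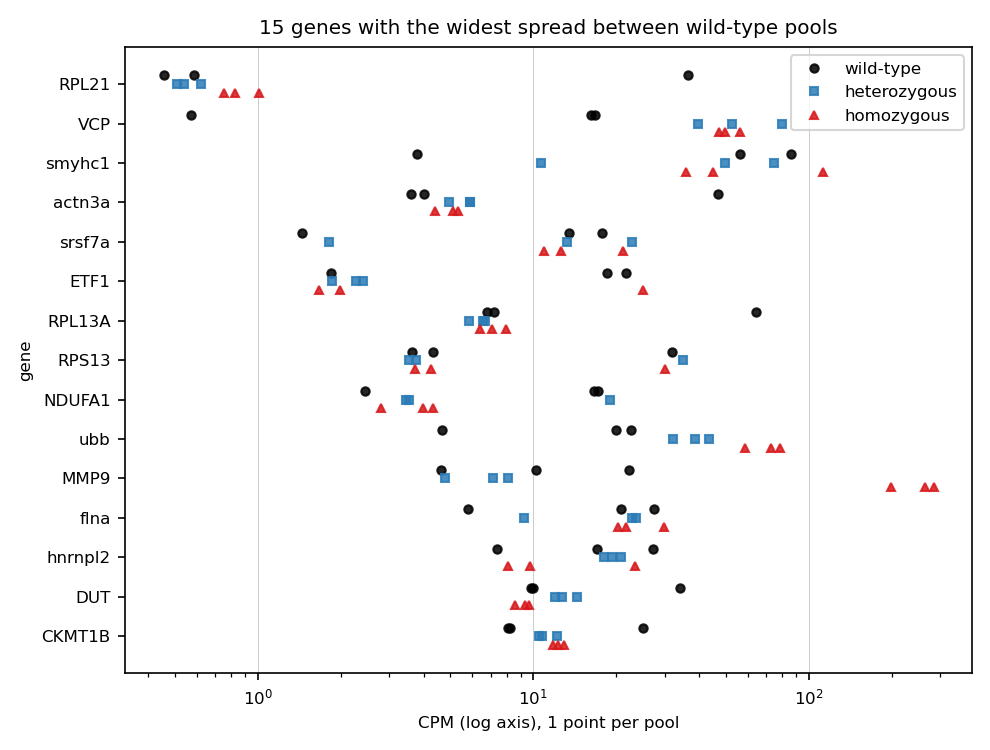
CPM (log x axis) of the 15 genes with the widest spread between wild-type pools, 1 point per pool, with heterozygous and homozygous pools below for the spread within each. RPS13 has 1 pool near 30 CPM in each genotype and the others near 4 CPM, and RPL21 is high only in wild-type replicate 1, at 36.6 CPM. Levels are not compared between genotypes.

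At the other end, the 5 steadiest genes with a mean of 100 CPM or more were CORO1C, AXIN2, plxnb2a.1, IDE and MBD3. The actin regulator CORO1C was at 150.4, 150.5 and 150.4 CPM. With 3 pools, a few of 1719 genes fall that close together, and the CV of CORO1C was 3.09% in the heterozygous and 2.55% in the homozygous pools.

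Genes often used to normalise zebrafish measurements ranged widely in steadiness. Over the 21 such IDs at 5 CPM or more the median CV was 2.28%, against 3.74% for all 1719 IDs at 100 CPM or more. The elongation factor eef1a1l1 varied by 1.11%, actb2 by 2.28%, actb1 by 2.37%, SDHA by 0.885%, TBP by 4.01% and RPS18 by 7.06%. GAPDH was at 1409, 1418 and 1505 CPM, a CV of 3.69%. RPL13A varied by 127%, from 6.78 to 64.2 CPM. The immune gene b2m was at 2.23, 3.64 and 2.49 CPM, and HPRT1 was listed at 0 in all pools.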

How the data were processed

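Polyadenylated RNA was sequenced from 9 pools of 30 embryos, and 3 wild-type pools are described here. Per the submitters' processing notes, cutadapt 1.18, HISAT2 2.1.0 and featureCounts 1.6.3 were used with GRCz11 (danRer11). Not given in the sources used here are the annotation release and how strand and multiply matching reads were treated. The authors deposited raw integer counts of reads per gene ID. Without a stated strand setting, overlapping and antisense genes cannot be told apart.

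CPM was computed here with TMM factors over all 9 libraries (edgeR 4.0.16, R 4.3.3). No test between groups was run. The edgeR dispersion step was tested on simulated counts. The 46 lists held 1187 entries. Symbols come from the names table given with the data, where fish paralogues can share a symbol: 42 entries had no match, 7 were left out as wrong alias matches, and 236 IDs whose paralogue could not be told were left out. These members and lists were chosen with earlier results of these data known. The rule for named genes took the 20 highest mean CPM, up to 4 leading members and defining low members per list, the reference genes, the 15 largest ratios between pools at a mean of 10 CPM or more, the 5 lowest CVs at 100 CPM or more, and npc2 and npc1. The genes that every cell uses and the globin (HBE1 included), hsp70, her4 and NOTCH values were named after their values were seen. So were mxc, TRRAP, AGO1 and some low or regulatory list members. Ranks per coding length and sequences were not analysed here. Some withheld items are not reported here.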

Additional observations from a re-analysis of the deposited data

How the results depend on the processing

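The number of IDs present, the shares of counts, the number of lists with at least 50% of IDs present and the edgeR dispersion kept within 1.5 times or 1 SD of their values under every scaling tried (TMM over 3 libraries, size factors, no factor) and without any 1 pool. The exception was the share of the 100 highest genes, which was 29.0% without mitochondrially encoded genes. The count of 163 IDs past 1.5-fold rose to 1054 at a mean of 1 CPM or more, and was 32 at 20 CPM or more and 39 at a ratio of 2. It was 72 to 105 without 1 pool, since 2 pools give a smaller range. The median CV was 3.41% to 5.32% without 1 pool, lowest without replicate 3. Keeping uncertain paralogues, an alternative chosen after seeing the data, moved the sums of 28 lists (fast muscle to 93560 CPM). A minimum of 5 CPM changed the number of present IDs by over 1.5 times in 13 lists. No paired analysis was possible because the result comes from no test. CPM per coding length was not run. Depth limits IDs under 1 CPM, where 38.5 to 63.7 counts equal 1 CPM.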
